A study of Mus musculus with 12 samples.

Results

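Chemokines are small secreted proteins that steer moving cells, and they act through G protein-coupled receptors. The genes described here are the protein-coding genes of the mouse chemokine ligands and chemokine receptors, chosen by their symbols (Ccl, Cxcl and Cx3cl1 for ligands, and Ccr, Cxcr, Ackr and Ccrl2 for receptors). The deposited table held 62 such genes among 55862, of which 41 were ligands and 21 were receptors. They carried 57 symbols, because 5 entries were further copies of Ccl19, Ccl21a, Ccl21b and Ccl27a on unplaced scaffolds. Mouse brain RNA was sequenced in 12 samples, 3 in each of 4 groups, all labelled C57BL/6, with C57BL/6J given for both NPC groups in the study's methods. ASTs were astrocytes isolated from the cerebral cortex of newborn pups, grown as a monolayer with serum and sampled on day 0 as the negative control. A-iSCs were the same kind of cells after 5 days as floating spheres above agarose. The positive controls were cell suspensions made directly from tissue, P56-NPCs from the adult subependymal zone (postnatal day 56) and P0-NPCs from the newborn hippocampus (postnatal day 0). No sorting was described for either suspension, so each may hold every cell type of its tissue. The labels do not say whether the 3 samples of a group came from separate cultures or animals, so the tests measure the spread between these samples, which may be technical.

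The ligands are named by the spacing of their first cysteines as CC, CXC and CX3C chemokines. Microglia, the resident macrophages, are known to make CC chemokines such as Ccl3 and Ccl4 and to carry Cx3cr1, the receptor for the Cx3cl1 of neurons. Cxcl12 and its receptor Cxcr4 guide the migration of neural precursors, and Ackr3 removes Cxcl12 without signalling through G proteins. Inflammatory chemokines such as Ccl2, Ccl5 and Cxcl10 are induced by cytokines and interferons in astrocytes and microglia.

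The number of fragments counted on genes ranged from 17077780 to 24452419 per sample, and 3 fragments on a gene of 1 kilobase corresponded to 0.103 to 0.187 FPKM (a level corrected for gene length and library depth). By a chi-square of the fragments per gene, A-iSC replicate 3 stood apart from both others of its group (75.5 and 95.1 per degree of freedom, against 12.3 between those others), and AST replicate 2 from both other ASTs (39.5 and 40.9, against 2.51). The labelled cell types were compared with lists of marker genes summed over each list. Microglia markers, 12 genes such as Csf1r and C1qa, summed to 299 to 362 FPKM in ASTs, 3096 to 4219 in A-iSCs, 949.8 to 1015 in P56-NPCs and 178 to 216 in P0-NPCs, and none of the 12 was at 0 in any group. Border macrophage markers, 6 genes, summed to 5.09 to 8.49 FPKM in ASTs, 49.7 to 70.2 in A-iSCs, 2.16 to 5.22 in P56-NPCs and 39.1 to 46.8 in P0-NPCs. The makeup of these sums differed. Mrc1, Cd163, Lyve1 and F13a1 stayed under 1 FPKM in every AST and A-iSC sample, which leaves Pf4 and Ms4a7, whereas in P0-NPCs only Ms4a7 did. Astrocyte markers summed to 116 to 133 FPKM in ASTs, the lowest sum of the 4 groups although these samples are labelled astrocytes, 1146 to 2396 in A-iSCs, 2787 to 3015 in P56-NPCs and 224 to 288 in P0-NPCs. The markers were not all lowest in ASTs, since by the test given below 4 of 7 were higher and 3 lower in P0-NPCs than in ASTs. Neural precursor markers were lowest in P56-NPCs, at 107 to 134 FPKM against 323 to 347 in ASTs, and oligodendrocyte markers reached 10245 to 11667 FPKM in P56-NPCs. Fibroblast markers summed to 147 to 198 FPKM in ASTs, 4.67 to 5.73 in A-iSCs, 4.33 to 10.5 in P56-NPCs and 109 to 122 in P0-NPCs. In ASTs the collagen gene Col1a1 alone averaged 158 FPKM, and Dcn and Lum of this list stayed under 1 FPKM in every sample. T cell and B cell markers stayed under 2 FPKM in sum in every sample, with Cd2, Cd3d and Cd3e at 0 in A-iSCs. In such bulk samples, fewer cells of a type and less RNA per cell cannot be told apart.

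Of the 62 genes, 6 were at 0 in every sample, 23 reached a mean of 1 FPKM in at least 1 group and 18 reached 5 FPKM. At 1 FPKM or more stood 18 genes in ASTs, 19 in A-iSCs, 17 in P56-NPCs and 11 in P0-NPCs. The 4 groups differed in the ligands that made up their chemokine RNA. In ASTs the ligands summed to 176 ± 17.2 FPKM (SD, n = 3), and Cxcl14 made up 39.3% ± 2.03 of that sum with Cx3cl1 at 19.4% ± 3.55. In A-iSCs they summed to 265 ± 89.5 FPKM, led by Ccl5 with 31.7% ± 5.53, Cxcl14 with 18.2% ± 4.27 and Ccl3 with 12% ± 1.86. In P56-NPCs they summed to 288 ± 18.1 FPKM and Cxcl14 alone was 63.5%, 67.3% and 73.8% of it. In P0-NPCs they summed to 61.0 ± 3.36 FPKM, led by Cxcl12 with 29.6% ± 1.84 and Ccl27a with 25.5% ± 2.08. The receptors summed to 29.2 ± 2.60 FPKM in ASTs, 73.1 ± 8.44 in A-iSCs, 19.0 ± 1.15 in P56-NPCs and 51.0 ± 9.40 in P0-NPCs, and Cxcr4 was the largest receptor in all 12 samples.

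**Figure D1:**
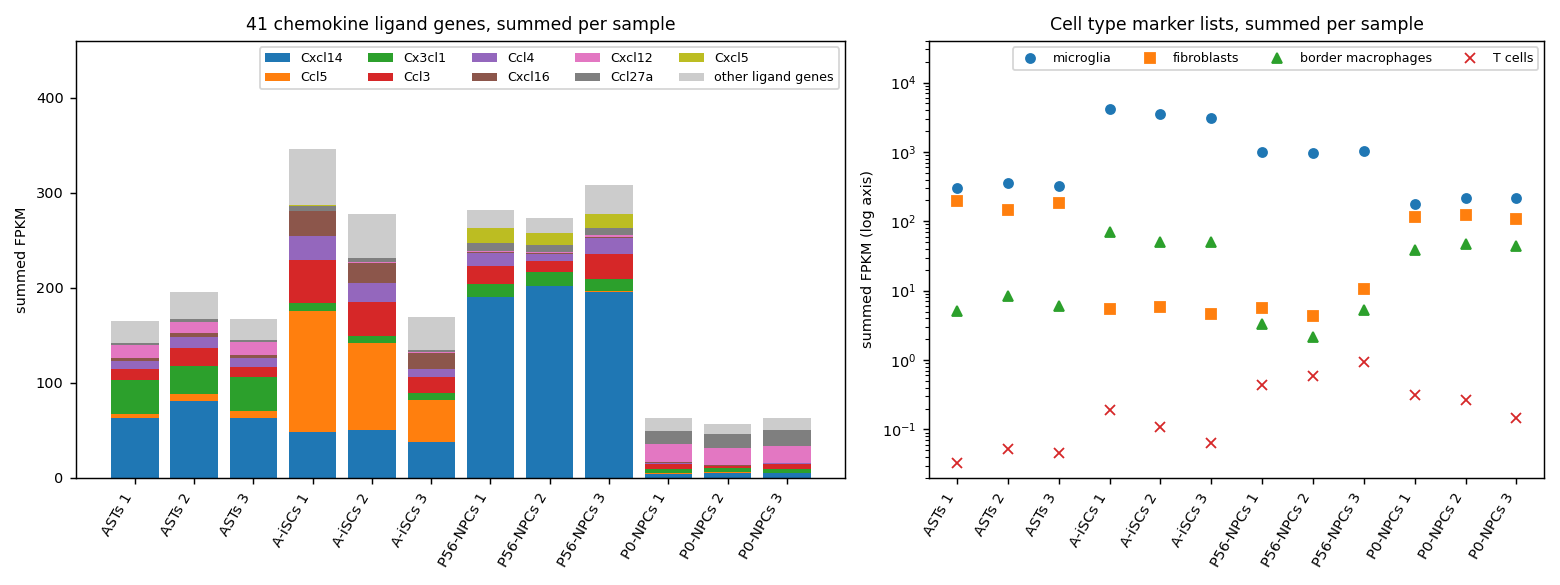
Left, summed FPKM of the 41 chemokine ligand genes in each of the 12 samples, with the largest ligands as coloured parts of each bar. Right, summed FPKM of 4 lists of cell type markers in the same samples on a log axis. Cxcl14 fills most of the P56-NPC bars and Ccl5 is the largest part of the 3 A-iSC bars, where microglia markers stand between 3096 and 4219 FPKM.

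The first comparison asks which chemokine genes changed when ASTs were cultured as spheres. Of 22 genes that passed the filter (a mean of 1 FPKM in either group), 12 were higher in A-iSCs, 5 were lower and 5 were not called, by limma on log2(FPKM + 1) with an adjusted p under 0.05. Among all 14087 genes tested, 25.2% were higher and 29.6% lower. The 22 genes had a median log2 fold change of 0.83, beside -0.059 for all genes tested. Of the 16 ligands tested 7 were higher and 5 lower, and of the 6 receptors tested 5 were higher and none lower. Without A-iSC replicate 3 these counts were 14 higher and 5 lower, and without AST replicate 2 they were 12 and 5. The 12 markers of microglia were all higher in A-iSCs, with a median log2 fold change of 3.32. Of the 6 border macrophage markers 2 were tested, Pf4 and Ms4a7, and both were higher. The other 4 were under 1 FPKM in every sample of both groups. The part of either list in these results was not tested.

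The stretch upstream of the start site is shown for 5 genes whose change between ASTs and A-iSCs passed the test and for which RefSeq gives a single start (higher in A-iSCs except Cxcl12, which was lower). Each is the 250 bases before the RefSeq start on GRCm38.p6, written 5′ to 3′ on the strand of the gene. They lie at chr5:92348890-92349139 (Cxcl10, minus strand), chr11:83578637-83578886 (Ccl9, minus), chr11:82101595-82101844 (Ccl12, plus), chr1:128592300-128592549 (Cxcr4, minus) and chr6:117168285-117168534 (Cxcl12, plus). Capitals mark matches, on either strand, to the NF-kappaB consensus, to the core of the interferon-stimulated response element (GAAANNGAA) or to TATAAA, and matches that overlap run together.
Cxcl10: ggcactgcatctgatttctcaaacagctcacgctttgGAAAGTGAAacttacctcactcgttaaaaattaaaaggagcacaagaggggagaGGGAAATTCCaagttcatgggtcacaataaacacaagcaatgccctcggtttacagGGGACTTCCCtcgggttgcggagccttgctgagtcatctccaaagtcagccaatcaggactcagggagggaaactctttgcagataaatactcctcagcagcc
Ccl9: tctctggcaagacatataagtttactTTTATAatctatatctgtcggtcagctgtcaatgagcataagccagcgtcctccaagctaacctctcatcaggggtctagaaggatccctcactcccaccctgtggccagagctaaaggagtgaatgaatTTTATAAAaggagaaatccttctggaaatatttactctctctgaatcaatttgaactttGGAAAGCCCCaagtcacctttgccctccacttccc
Ccl12: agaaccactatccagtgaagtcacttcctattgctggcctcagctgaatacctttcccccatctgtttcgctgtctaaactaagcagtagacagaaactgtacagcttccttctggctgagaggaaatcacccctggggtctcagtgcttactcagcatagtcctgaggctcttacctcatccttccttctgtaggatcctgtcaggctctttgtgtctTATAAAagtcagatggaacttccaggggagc
Cxcr4: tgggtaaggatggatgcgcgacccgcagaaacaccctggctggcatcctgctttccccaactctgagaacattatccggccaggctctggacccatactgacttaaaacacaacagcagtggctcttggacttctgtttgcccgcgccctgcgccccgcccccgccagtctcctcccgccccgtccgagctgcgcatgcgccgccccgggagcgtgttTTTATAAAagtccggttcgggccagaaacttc
Cxcl12: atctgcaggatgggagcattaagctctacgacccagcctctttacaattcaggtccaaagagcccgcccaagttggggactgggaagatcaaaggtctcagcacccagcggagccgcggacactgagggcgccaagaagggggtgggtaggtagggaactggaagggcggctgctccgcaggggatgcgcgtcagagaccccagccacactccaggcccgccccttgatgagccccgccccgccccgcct

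The window of Cxcl10 held 2 matches to the NF-kappaB consensus, starting 159 and 103 bases before the start, and 1 to the response element core, 213 bases before it. That of Ccl9 held an NF-kappaB match 35 bases before the start and TATAAA at 224, 94 and 92 bases before it on 1 strand or the other. Those of Ccl12 and Cxcr4 held TATAAA 31 and 30 bases before the start, and Cxcr4 also at 32 on the other strand. None of the 3 motifs was found in the window of Cxcl12, but Cxcl14 and Cx3cl1, which were also lower in A-iSCs, held the response element core 172 bases and TATAAA 6 bases before the start. At least 1 motif was found for 6 of the 9 higher genes with a window and for 2 of the 4 lower ones. Of the chemokine and receptor genes, 43 had RefSeq windows, 52 in all. The NF-kappaB consensus was found in 10 of these 52 and the response element core in 8, while among all 32851 windows in the table they were found in 3.90% and 7.13%, and TATAAA was found in 13 of the 52 and in 12.4% of all. A match describes letters only and was not tested as a binding site.

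By the positions in the table, which match GRCm38, the CC ligands of ASTs and A-iSCs lie mostly in a cluster on chromosome 11, with Ccl2 at chr11:82035571-82037453, Ccl12 at chr11:82101845-82103400, Ccl5 at chr11:83525778-83530518, Ccl9 at chr11:83572919-83578636 and Ccl3 at chr11:83647844-83649355. Ccl5, a ligand of Ccr1 that recruits T cells and macrophages, had the largest rise of them on the log2(FPKM + 1) scale, whereas by the ratio of means Ccl6 rose more. It stood at 4.66, 6.37 and 6.45 FPKM in ASTs and 127, 91.5 and 43.5 in A-iSCs, with 0.84, 0.26 and 1.01 in P56-NPCs and 0.729, 0.25 and 0.34 in P0-NPCs. The A-iSC samples varied widely, but the lowest of them lay above every sample of the other groups. The mean was 15 times that of ASTs (log2 fold change 3.57 ± 0.36, SE, adjusted p = 0.000172). Ccl6 and Ccl9 are rodent CC chemokines of macrophages and myeloid cells that act on Ccr1. Ccl6 stood at 0.299, 0.495 and 0.24 FPKM in ASTs, 13.5, 13.1 and 9.73 in A-iSCs, 5.58, 4.44 and 7.17 in P56-NPCs and 2.0, 2.16 and 1.84 in P0-NPCs, with no overlap between any of the groups. It was 35.2 times higher in A-iSCs than in ASTs (3.28 ± 0.15, adjusted p = 6.91e-06). Ccl9 stood at 1.16, 1.12 and 1.13 FPKM in ASTs and 13.2, 8.81 and 7.35 in A-iSCs, and at 3.29, 3.01 and 3.47 in P56-NPCs and 1.64, 1.61 and 1.38 in P0-NPCs, the same order of groups as for Ccl6. Its log2 fold change was 2.30 ± 0.19 (adjusted p = 7.1e-05). Ccl12, a mouse ligand of Ccr2 related to Ccl2, stood at 2.0, 3.03 and 1.91 FPKM in ASTs, 12.5, 8.62 and 5.9 in A-iSCs, 3.97, 4.06 and 5.77 in P56-NPCs and 2.2, 1.34 and 2.37 in P0-NPCs, and rose 3.89 times in A-iSCs (1.56 ± 0.25, adjusted p = 0.00174).

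Ccl3 and Ccl4, neighbouring genes on chromosome 11 whose products attract myeloid cells, overlapped between ASTs and A-iSCs. Ccl3 stood at 12.1, 18.6 and 10.8 FPKM in ASTs, 45.7, 36.1 and 16.7 in A-iSCs, 19.2, 10.6 and 26.6 in P56-NPCs and 4.91, 1.93 and 5.07 in P0-NPCs. Ccl4 stood at 8.31, 12 and 9.63 FPKM in ASTs, 25.6, 19.3 and 8.87 in A-iSCs, 13.5, 7.83 and 16.5 in P56-NPCs and 0.993, 0.104 and 0.55 in P0-NPCs. For both genes the lowest A-iSC sample lay within the range of ASTs. Ccl3 was higher in A-iSCs at 1.11 ± 0.37 (adjusted p = 0.0364), but this call was lost without AST replicate 1 or 3 or without A-iSC replicate 1 or 2, at adjusted p values up to 0.113, and with no filter (adjusted p = 0.0855). Ccl4 was not called (0.68 ± 0.35, adjusted p = 0.134), and it was called without A-iSC replicate 3 (1.09, adjusted p = 0.0026). The monocyte attractant Ccl2 went the other way, with 9.12, 11.2 and 9.75 FPKM in ASTs, 6.28, 4.84 and 3.38 in A-iSCs, 1.77, 0.766 and 2.51 in P56-NPCs and 1.42, 0.604 and 0.893 in P0-NPCs. It fell in A-iSCs (-0.95 ± 0.19, adjusted p = 0.00494) and all ASTs stood above all A-iSCs. Its neighbour Ccl7, which shares the receptor Ccr2, averaged 3.18 ± 1.02 FPKM in ASTs and 1.64 ± 0.836 in A-iSCs and was not called (-0.68 ± 0.26, adjusted p = 0.0589), although it was without AST replicate 3 (adjusted p = 0.0365) or A-iSC replicate 1 (adjusted p = 0.015) and with the replicate block (adjusted p = 0.0261). Ccl17, a ligand of Ccr4, fell from 1.23 ± 0.456 FPKM in ASTs to 0.0322 ± 0.0557 in A-iSCs, where it had 1 fragment in all (-1.09 ± 0.17, adjusted p = 0.00146). Ccl27a, best known from skin, averaged 2.33 ± 0.952 FPKM in ASTs against 3.92 ± 1.73 in A-iSCs (0.53 ± 0.31, adjusted p = 0.178), and it was called only without A-iSC replicate 3 (0.84, adjusted p = 0.0211).

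**Figure D2:**
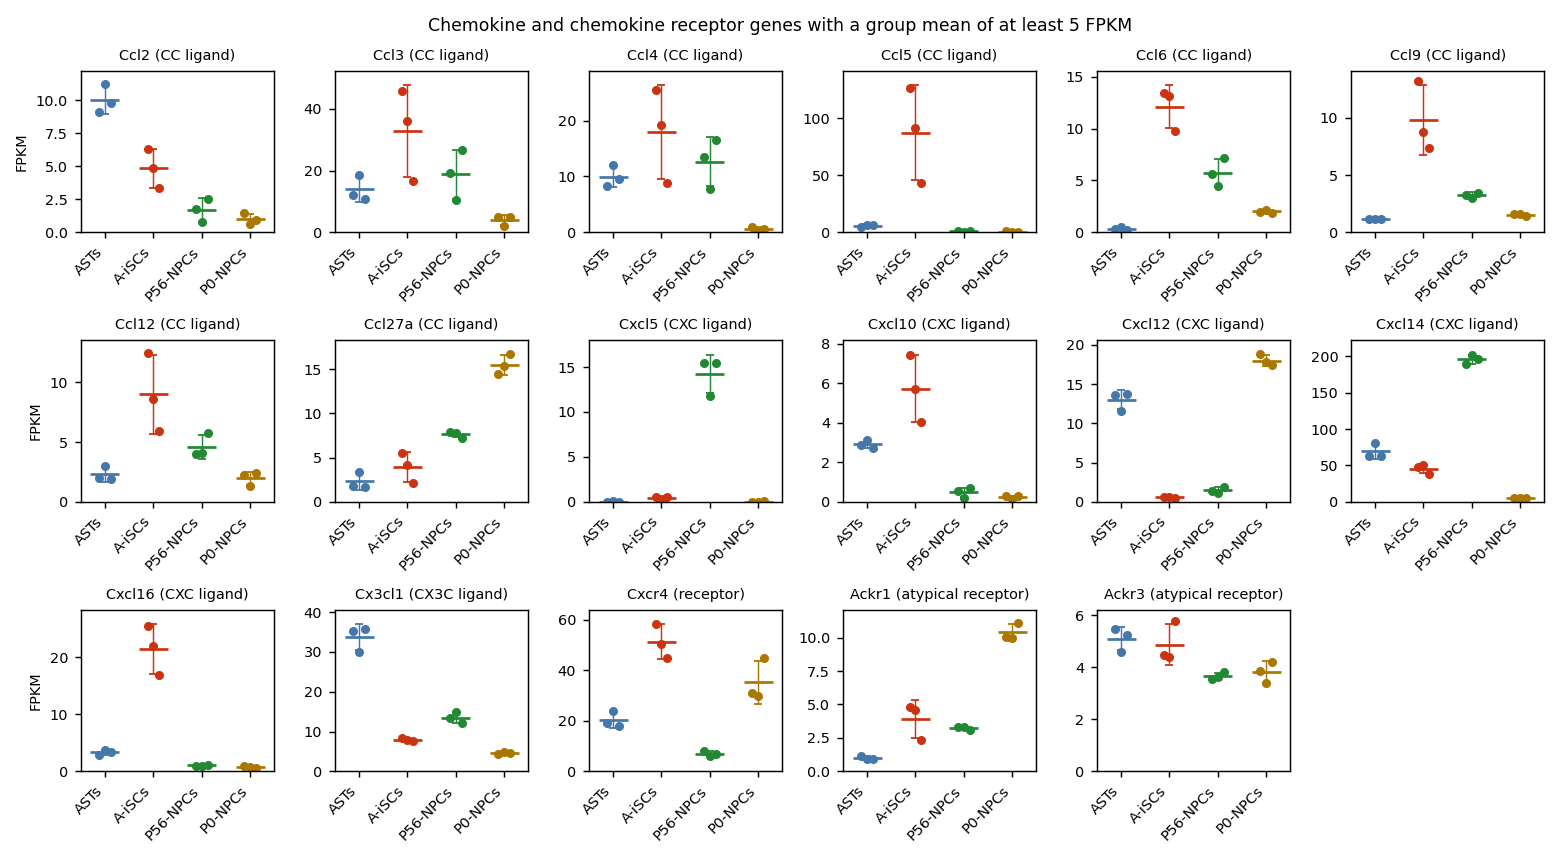
FPKM of 17 of the 18 chemokine and receptor genes with a mean of at least 5 FPKM in any group, on linear axes from 0. Each point is 1 sample, the horizontal line is the mean of 3 samples and the bar is its SD. Ccl5, Ccl6, Ccl9 and Cxcl16 are highest in the 3 A-iSC samples, Cxcl14 and Cxcl5 in P56-NPCs, and Cxcl12, Ccl27a and Ackr1 in P0-NPCs.

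The CXC ligands split between the groups. Cxcl12 (chr6:117168535-117181367), the ligand of Cxcr4, had the most negative change in A-iSCs of the ligands tested on the log2(FPKM + 1) scale. It stood at 13.6, 11.6 and 13.8 FPKM in ASTs, 0.595, 0.545 and 0.525 in A-iSCs, 1.31, 1.14 and 1.9 in P56-NPCs and 18.8, 17.8 and 17.4 in P0-NPCs. The AST level was 23.4 times that of A-iSCs (log2 fold change -3.17 ± 0.11, adjusted p = 3.54e-06), and none of the 4 groups overlapped. Fibroblast markers fell with it, 3 of 3 tested being lower in A-iSCs, and their part in the change was not tested. These 3 were all collagen genes, while Dcn and Lum of the same list were under 1 FPKM in every AST and A-iSC sample. Cxcl16, a membrane-bound chemokine that is shed and binds Cxcr6, stood at 2.82, 3.71 and 3.44 FPKM in ASTs and 25.6, 21.9 and 16.9 in A-iSCs, with 0.973, 0.949 and 1.15 in P56-NPCs and 0.854, 0.75 and 0.577 in P0-NPCs. It rose 6.46 times (2.36 ± 0.17, adjusted p = 3.3e-05). Zmynd15, which overlaps Cxcl16 on the other strand, was at 0.142 ± 0.0531 FPKM in ASTs and 1.22 ± 0.487 in A-iSCs, and whether the counting used strand is not given in the sources used here. Cxcl10, an interferon-induced ligand of Cxcr3, stood at 2.89, 3.11 and 2.73 FPKM in ASTs, 7.45, 5.72 and 4.02 in A-iSCs, 0.537, 0.194 and 0.674 in P56-NPCs and 0.272, 0.122 and 0.274 in P0-NPCs. It rose 1.97 times in A-iSCs (0.75 ± 0.19, adjusted p = 0.0123), and both cultured groups stood above all NPC samples.

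Cxcl14, a chemokine that is abundant in brain and has no settled receptor, stood at 63, 81.5 and 63.5 FPKM in ASTs, 48.4, 49.98 and 38.1 in A-iSCs, 189.9, 202 and 196 in P56-NPCs and 4.59, 5.47 and 4.75 in P0-NPCs. The 4 groups did not overlap. It was lower in A-iSCs than in ASTs (-0.60 ± 0.16, adjusted p = 0.0181), a call that was lost with scaling by library size alone (-0.38, adjusted p = 0.0731) and with upper-quartile scaling (-0.38, adjusted p = 0.124). Cx3cl1, the membrane-tethered ligand of Cx3cr1, stood at 35.3, 29.9 and 35.8 FPKM in ASTs, 8.34, 7.88 and 7.51 in A-iSCs, 13.4, 14.9 and 12.1 in P56-NPCs and 4.4, 4.94 and 4.71 in P0-NPCs. It was 4.26 times lower in A-iSCs than in ASTs (-1.96 ± 0.12, adjusted p = 1.6e-05), and ASTs stood above every other sample. Neuron markers summed to 41.7 to 57.2 FPKM in ASTs, 42 to 54.7 in A-iSCs, 178 to 219 in P56-NPCs and 657 to 808 in P0-NPCs, and their part in the Cx3cl1 values was not tested. Cxcl5, which attracts neutrophils through Cxcr2, was highest in P56-NPCs. It stood at 15.4, 11.7 and 15.5 FPKM there and at 0.506, 0.226 and 0.541 in A-iSCs, while ASTs and P0-NPCs held 2 fragments each in all. Cxcl2, of the same receptor, averaged 1.21 ± 0.273 FPKM in ASTs and 0.815 ± 0.124 in A-iSCs, and it was not called (-0.28 ± 0.13, adjusted p = 0.109).

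Among the receptors, Cxcr4 (chr1:128588199-128592293) stood at 19.1, 23.8 and 17.7 FPKM in ASTs, 58.5, 50.5 and 44.8 in A-iSCs, 7.97, 6.03 and 6.98 in P56-NPCs and 31, 29.7 and 44.9 in P0-NPCs. It rose 2.54 times in A-iSCs over ASTs (1.30 ± 0.16, adjusted p = 0.000404) while its ligand Cxcl12 fell, so the A-iSCs had the highest mean of the receptor and the lowest of the ligand. Ackr3, the scavenger of Cxcl12, stood between 3.65 and 5.09 FPKM in the means of the 4 groups, and A-iSCs and ASTs did not differ by the test (-0.059 ± 0.13, adjusted p = 0.724), the sign of this value turning with the scaling. Its values were 5.45, 4.6 and 5.23 FPKM in ASTs, 4.48, 4.37 and 5.76 in A-iSCs, 3.53, 3.61 and 3.81 in P56-NPCs and 3.86, 3.38 and 4.2 in P0-NPCs. Ccr1 is a receptor of Ccl3 and Ccl5 on myeloid cells and T cells. Ccr1 averaged 0.47 ± 0.208 FPKM in ASTs against 4.07 ± 0.792 in A-iSCs (1.78 ± 0.16, adjusted p = 0.000113), and it stayed under 0.5 FPKM in every NPC sample. Ccrl2, an atypical receptor that presents chemerin, averaged 1.03 ± 0.0636 FPKM in ASTs against 2.84 ± 0.742 in A-iSCs (0.91 ± 0.15, adjusted p = 0.00219).

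Ackr1, the atypical receptor of red blood cells and venules that binds many CC and CXC ligands, stood at 1.15, 0.913 and 0.881 FPKM in ASTs, 4.84, 4.61 and 2.31 in A-iSCs, 3.28, 3.33 and 3.11 in P56-NPCs and 10.1, 9.999 and 11.1 in P0-NPCs. It was higher in A-iSCs than in ASTs (1.27 ± 0.22, adjusted p = 0.00247), and P0-NPCs stood above all other samples. Cadm3, a cell adhesion gene that overlaps Ackr1 on the same strand, averaged 2.62 ± 0.213 FPKM in ASTs, 5.17 ± 1.66 in A-iSCs, 7.73 ± 0.944 in P56-NPCs and 24.2 ± 0.439 in P0-NPCs. Both genes were thus lowest in ASTs and highest in P0-NPCs, and fragments of the shared stretch cannot be told apart here. The endothelial markers, cells known to carry Ackr1, summed to 4.46 to 4.5 FPKM in ASTs, 2.14 to 3.22 in A-iSCs, 4.24 to 4.71 in P56-NPCs and 72.8 to 74.8 in P0-NPCs. The part of either in the Ackr1 values was not tested.

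**Figure D3:**
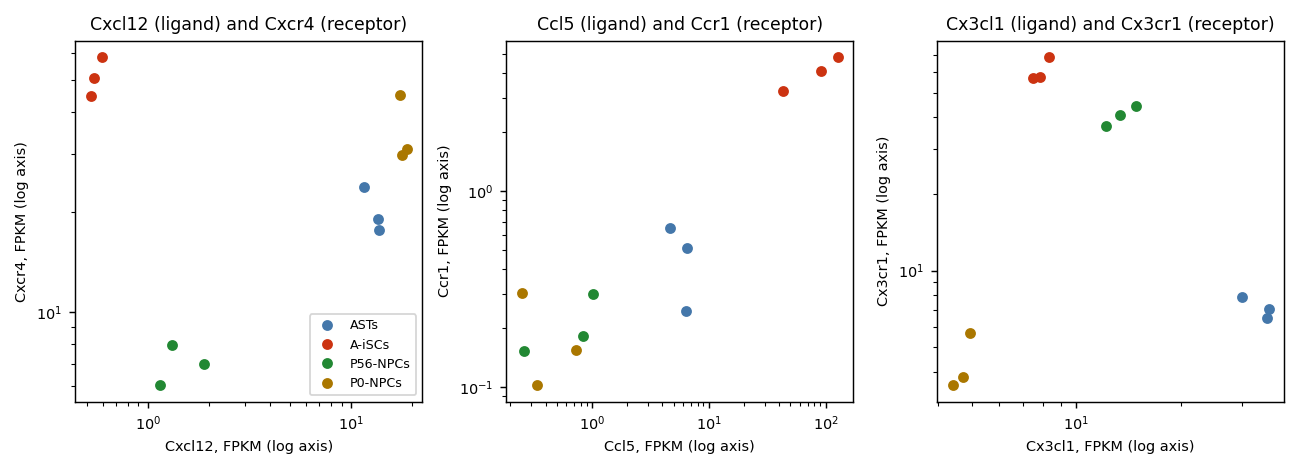
Level of a ligand (horizontal, FPKM, log axis) against its receptor (vertical, FPKM, log axis) for Cxcl12 and Cxcr4, Ccl5 and Ccr1, and Cx3cl1 and Cx3cr1, 1 point a sample coloured by group. A-iSCs lie at high Cxcr4 with Cxcl12 under 0.6 FPKM, at high Ccl5 with high Ccr1, and at high Cx3cr1 with Cx3cl1 under 9 FPKM.

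Of 19 genes with a mean of at least 1 FPKM in A-iSCs, replicate 1 was the highest sample for 16 and replicate 3 the lowest for 16. Among all 13207 genes at that level replicate 1 was the highest for 33% and replicate 3 the lowest for 43.6%, and replicate 3 stood apart from both others over all genes. The microglia markers summed to 4219 FPKM in replicate 1, 3503 in replicate 2 and 3096 in replicate 3, while the astrocyte markers summed to 1146, 1426 and 2396 FPKM in these replicates, the opposite order. The part of either list was not tested. Ackr3 went against this order and had its highest value in replicate 3.

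Next, A-iSCs were compared with each NPC group. The 6 comparisons here share groups, so their values are given side by side and are not independent of each other. Against P56-NPCs, 12 of 21 genes tested were higher in A-iSCs and 5 lower, where 30.1% of all genes tested were higher and 30.9% lower. Against P0-NPCs, 16 of 20 were higher and 3 lower, where the shares of all genes were 31.5% and 33.6%. Over the chemokine genes tested the median log2 fold change was 0.75 against P56-NPCs and 1.88 against P0-NPCs, beside 0.029 and -0.019 for all genes. Without A-iSC replicate 3 the counts were 15 higher and 5 lower against P56-NPCs, and 16 and 3 against P0-NPCs. Ccl5 was 124 times higher than in P56-NPCs (5.59 ± 0.38, adjusted p = 2.03e-05) and 198 times higher than in P0-NPCs (5.82 ± 0.35, adjusted p = 6.09e-06). Cxcl16 was 21 and 29.5 times higher, Cxcl10 12.2 and 25.7 times, and Ccr1 19.2 and 21.8 times, with all of these called. The receptors Cxcr4 and Ccr1 were higher than in either NPC group. For Cxcr4 the difference was 2.71 ± 0.14 against P56-NPCs (adjusted p = 5.48e-06) and 0.54 ± 0.18 against P0-NPCs (adjusted p = 0.0308), where the samples overlapped and the call was lost without A-iSC replicate 1 or 2 or P0-NPC replicate 1 or 2, at adjusted p values up to 0.115. It was also lost with upper-quartile scaling (0.35, adjusted p = 0.117), with the replicate block (adjusted p = 0.0572) and with no filter (adjusted p = 0.0648).

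In A-iSCs Cxcl12 was 2.62 times lower than in P56-NPCs (-0.64 ± 0.14, adjusted p = 0.00521) and 32.4 times lower than in P0-NPCs (-3.61 ± 0.10, adjusted p = 3.25e-07). Ccl27a was also lower than in P56-NPCs (-0.88 ± 0.26, adjusted p = 0.0206) and than in P0-NPCs (-1.81 ± 0.25, adjusted p = 0.000448), the first call being lost without P56-NPC replicate 1 or 2 (adjusted p up to 0.0663), with no filter (adjusted p = 0.0502) and with scaling by library size alone (adjusted p = 0.183). Cxcl14 differed in opposite directions, 4.31 times lower than in P56-NPCs (adjusted p = 1.24e-05) and 9.21 times higher than in P0-NPCs (adjusted p = 1.55e-06). Cx3cl1 likewise was lower than in P56-NPCs (-0.69 ± 0.10, adjusted p = 0.00101), a call that was lost with scaling by library size alone (-0.19, adjusted p = 0.124), and higher than in P0-NPCs (0.65 ± 0.10, adjusted p = 0.000804). Cxcl5 was lower than in P56-NPCs only, 0.424 against 14.2 FPKM (adjusted p = 2.58e-06), and was not tested against P0-NPCs. Ackr1 was lower than in P0-NPCs (-1.25 ± 0.22, adjusted p = 0.00133) and not called against P56-NPCs (0.17 ± 0.22, adjusted p = 0.52), but it was without A-iSC replicate 3 (0.43, adjusted p = 0.00164) and with scaling by library size alone (0.59, adjusted p = 0.0422).

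Ackr3 was higher than in P56-NPCs (0.33 ± 0.12, adjusted p = 0.0428), a call that was lost without A-iSC replicate 1 or without any 1 of the P56-NPC samples, at adjusted p values up to 0.136, and with no filter, the replicate block or limma-voom, at values up to 0.077. Ackr3 was not called against P0-NPCs (0.28 ± 0.13, adjusted p = 0.0952), but it was with all 4 groups in the model (adjusted p = 0.0347).

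Of the macrophage chemokines, Ccl6, Ccl9 and Ccl12 were higher in A-iSCs than in both NPC groups. The values for Ccl6 were 0.97 ± 0.18 against P56-NPCs (adjusted p = 0.0032) and 2.12 ± 0.14 against P0-NPCs (adjusted p = 9.37e-06). Ccl9 stood 3.01 and 6.34 times higher, and Ccl12 1.96 and 4.57 times, the Ccl12 call against P56-NPCs (adjusted p = 0.0279) being lost without A-iSC replicate 1 or 2 or P56-NPC replicate 1 or 2, at adjusted p values up to 0.0944, and with no filter, the replicate block or limma-voom, at values up to 0.0637. Ccl3 and Ccl4 were higher than in P0-NPCs (2.73 ± 0.41 and 3.54 ± 0.37, adjusted p = 0.000618 and 9.47e-05) but were not called against P56-NPCs (0.75 ± 0.43 and 0.42 ± 0.40, adjusted p = 0.169 and 0.395) with all samples. Both were called without A-iSC replicate 3 (1.16 and 0.83, adjusted p = 0.0217 and 0.0389), and Ccl3 also with scaling by library size alone (1.28, adjusted p = 0.0299). Microglia markers were higher in A-iSCs for 8 of 12 genes against P56-NPCs, with 2 lower, and for 12 of 12 against P0-NPCs. Border macrophage markers were higher for 2 of 2 tested against P56-NPCs, but higher for 1 and lower for 4 of 6 against P0-NPCs. The part of either list in these differences was not tested.

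**Figure D4:**
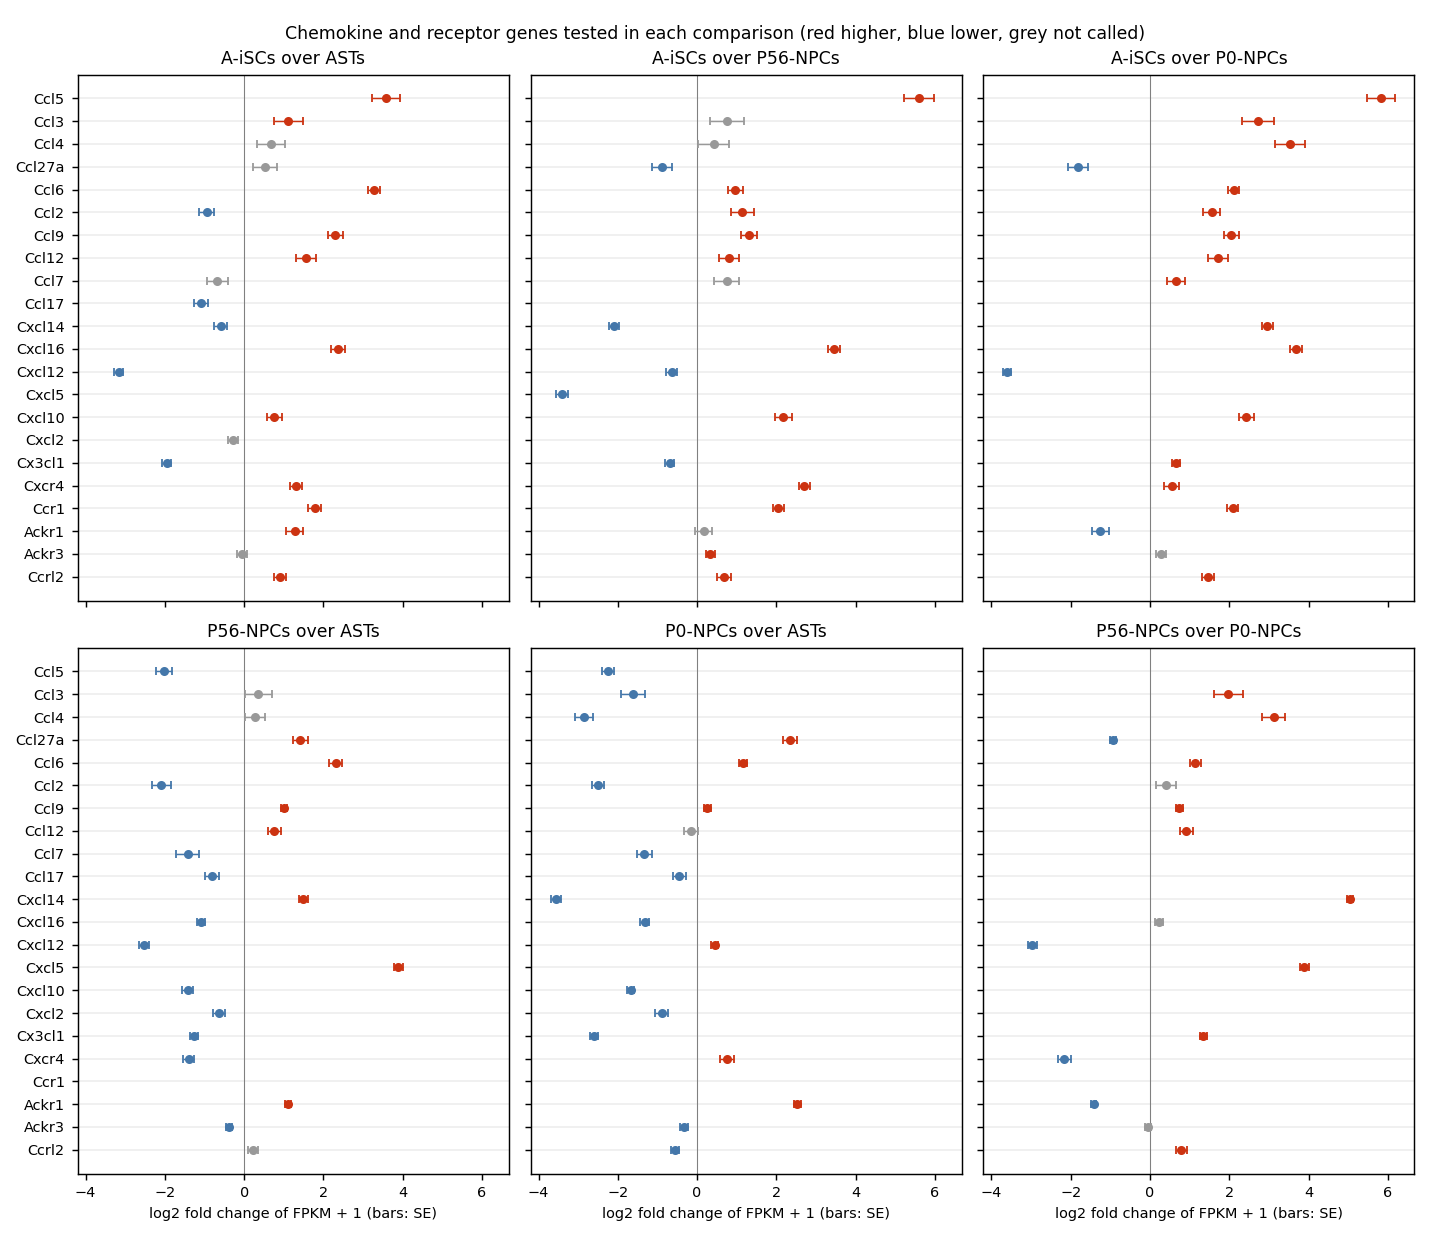
Log2 fold change of FPKM + 1 (horizontal) with its SE for 22 of the 23 chemokine and receptor genes at 1 FPKM or more in a group, in each of 6 comparisons, by limma. Red points are called higher in the group named first, blue points lower, grey points are not called, and a gene without a point did not pass the filter in that comparison. In A-iSCs over P0-NPCs most points are red, and Cxcl12 is blue in all 3 comparisons of A-iSCs.

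The NPC groups were then set against ASTs and against each other. Against ASTs, 8 of 22 chemokine genes were higher in P56-NPCs and 11 lower, where 39.1% of all genes tested were higher and 39.8% lower. In P0-NPCs 6 of 20 were higher and 13 lower, where the shares of all genes were 38.1% and 40.9%. Without AST replicate 2 the counts were 8 and 11 in P56-NPCs and 6 and 11 in P0-NPCs. The median log2 fold change of these chemokine genes was -0.079 in P56-NPCs and -0.73 in P0-NPCs, beside -0.030 and -0.068 for all genes. Of the microglia markers 10 of 11 tested were higher in P56-NPCs and none lower, whereas in P0-NPCs 2 of 11 were higher and 7 lower. Border macrophage markers were lower for 2 of 2 tested in P56-NPCs, and higher for 5 and lower for 1 of 6 in P0-NPCs. Fibroblast markers were higher for 1 and lower for 3 of 4 tested in P56-NPCs, and higher for 4 and lower for 1 of 5 in P0-NPCs. The part of these lists in the results was not tested. Ccl2 was 5.96 times lower in P56-NPCs and 10.3 times in P0-NPCs (adjusted p = 0.000131 and 2.68e-06), and Ccl5 8.28 and 13.2 times (adjusted p = 5.69e-05 and 5.34e-06). Cxcl10, Cxcl16, Ccl7, Cxcl2 and Cx3cl1 were also called lower in both. Ccl12 was higher in P56-NPCs (0.76 ± 0.17, adjusted p = 0.00477), whereas Ccl3 and Ccl4 were lower in P0-NPCs (-1.62 ± 0.31 and -2.85 ± 0.22, adjusted p = 0.00146 and 8.45e-06) and not called in P56-NPCs (0.36 ± 0.33 and 0.27 ± 0.26, adjusted p = 0.345 and 0.363), although Ccl4 was called higher there without P56-NPC replicate 2 (0.55, adjusted p = 0.0279). Ccl6 and Ccl27a were higher in both, Ccl27a by 1.42 ± 0.18 in P56-NPCs and 2.35 ± 0.18 in P0-NPCs (adjusted p = 0.000267 and 8.92e-06). Il11ra1, which overlaps Ccl27a on the other strand, averaged 7.4 ± 0.909 FPKM in ASTs, 10.5 ± 0.754 in A-iSCs, 12.8 ± 0.883 in P56-NPCs and 4.78 ± 0.438 in P0-NPCs. Its means had the order of those of Ccl27a over the first 3 of these groups and were lowest in P0-NPCs, where Ccl27a was highest, and its part in the Ccl27a values was not tested.

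The NPC groups parted over Cxcl12 and Cxcr4, which were both lower in P56-NPCs than in ASTs (-2.52 ± 0.13 and -1.40 ± 0.13, adjusted p = 2e-06 and 5.08e-05) and both higher in P0-NPCs (0.44 ± 0.091 and 0.76 ± 0.18, adjusted p = 0.00234 and 0.00444). Directly compared, P56-NPCs were 12.4 times lower than P0-NPCs in Cxcl12 (-2.97 ± 0.11, adjusted p = 3.68e-07) and 5.04 times lower in Cxcr4 (-2.16 ± 0.16, adjusted p = 1.06e-05). They were 39.7 times higher in Cxcl14 (5.05 ± 0.073, adjusted p = 6.47e-09). Ccl4 averaged 12.6 FPKM in P56-NPCs against 0.549 in P0-NPCs (3.12 ± 0.29, adjusted p = 3.2e-05). In this comparison 10 of 17 genes were higher in P56-NPCs and 4 lower, where 39.7% of all genes tested were higher and 39.0% lower. The median over the 17 genes was 0.79 on the log2 scale, beside 0.0058 for all genes. The 4 lower genes were Cxcl12, Cxcr4, Ackr1 and Ccl27a. Microglia markers were higher in P56-NPCs for 11 of 11 genes tested. Border macrophage markers were lower for all 5 tested, and endothelial, pericyte and fibroblast markers for all 6, 5 and 5 tested. The part of these lists in the values was not tested. Cxcl5 stood apart in P56-NPCs from both other groups (3.89 ± 0.11 over ASTs and 3.90 ± 0.11 over P0-NPCs), log2 sizes that depend on the added 1 FPKM because those groups held 2 fragments each. The neutrophil markers, cells that Cxcl5 attracts, summed to 6.01 to 9.31 FPKM in P56-NPCs, 0 to 0.568 in ASTs and 7.41 to 19.9 in P0-NPCs.

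Some calls in these comparisons were lost when 1 sample was left out. Ccl9 in P0-NPCs over ASTs (0.25 ± 0.088, adjusted p = 0.029) was lost without AST replicate 1 or 3 or P0-NPC replicate 1 or 2, at adjusted p values up to 0.0813, and with no filter, the replicate block, limma-voom or all 4 groups in the model, at values up to 0.156. Ccl17 in the same comparison (-0.45 ± 0.17, adjusted p = 0.0399) was lost without any sample but AST replicate 3, at adjusted p values up to 0.128, and with no filter, the replicate block, limma-voom or either other scaling, at values up to 0.196. Ackr3 in P0-NPCs over ASTs (-0.34 ± 0.10, adjusted p = 0.0139) was lost without AST replicate 1 (adjusted p = 0.0564) and with either other scaling.

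The balance of higher and lower calls depended on the scaling. The library size inferred behind the deposited values was 0.744 to 1.22 times the fragments counted. The values thus already held a scaling other than by these totals, and its kind was not tested. With scaling by library size alone, higher and lower calls among all genes went from 3550 and 4165 to 4566 and 2990 in A-iSCs over ASTs, from 5924 and 6032 to 4578 and 7561 in P56-NPCs over ASTs, and from 5713 and 6146 to 7107 and 4862 in P0-NPCs over ASTs. They went from 4532 and 4643 to 8333 and 2860 in A-iSCs over P56-NPCs and from 6115 and 6011 to 3441 and 9432 in P56-NPCs over P0-NPCs. With upper-quartile scaling they were 4468 and 2871 in A-iSCs over ASTs, 7608 and 4257 in P0-NPCs over ASTs, and 4953 and 7502 in P56-NPCs over P0-NPCs. In P56-NPCs over ASTs they were 6504 and 5115, the opposite balance to library size alone, and in A-iSCs over P56-NPCs 4853 and 4405. In A-iSCs over P0-NPCs they went from 4773 and 5103 to 4491 and 5659 with library size alone and to 3935 and 6283 with upper-quartile scaling. The median log2 fold change of all genes under library size alone was 0.13, -0.34, 0.21, 0.49, -0.094 and -0.53, in A-iSCs, P56-NPCs and P0-NPCs over ASTs, A-iSCs over P56-NPCs and P0-NPCs, and P56-NPCs over P0-NPCs. Under upper-quartile scaling the same medians were 0.13, 0.11, 0.32, 0.077, -0.20 and -0.22. The chemokine genes called in A-iSCs over ASTs were then 12 higher and 4 lower with either scaling. In A-iSCs over P56-NPCs they were 15 and 3 with library size alone, and in P56-NPCs over P0-NPCs 10 and 7 with library size alone and 10 and 6 with upper-quartile scaling.

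Of the remaining genes, 39 stayed under 1 FPKM in the mean of every group, 24 ligands and 15 receptors, and 33 of these had at least 1 fragment in some sample. The lymphoid axis of Ccl19, Ccl21a and Ccr7, which brings dendritic cells and T cells into lymph nodes, had few fragments. Ccl19 and Ccl21a on chromosome 4 had no fragment in any sample. The highest floor of a sample, at 3 fragments, was 0.187 FPKM for a gene of 1 kilobase. These genes are shorter, at 867 and 870 bases, so their floor lies higher. Both also have a scaffold copy, so the 0 does not bound their level. The scaffold copy of Ccl21a had 6 fragments in P56-NPC replicate 3 and 1 in P0-NPC replicate 1. Ccl21b, another ligand of Ccr7, averaged 0.697 ± 0.209 FPKM in P56-NPCs and 0.30 ± 0.191 in P0-NPCs, from 8, 13 and 9 fragments in the P56-NPC samples. Ccr7 averaged 0.142 ± 0.0366 FPKM in P56-NPCs with 0.00831 in ASTs and 0 in both other groups. Ccl21a, Ccl21b, Ccl27a and Ccl27b have near-identical copies among which reads can split, and Ccl19 has a scaffold copy, so the values of all these genes are uncertain. Ccr2, the receptor of Ccl2, Ccl7 and Ccl12 on monocytes, averaged 0.00294 FPKM in ASTs, 0.049 in A-iSCs, 0.0744 in P56-NPCs and 0.00733 in P0-NPCs, below the mean of each of these ligands in all groups. Cxcr3, the receptor of Cxcl9 and Cxcl10, was under 0.2 FPKM in the mean of every group, and Cxcl9 reached 0.224 ± 0.232 FPKM in P56-NPCs. Cxcl1, which with Cxcl2 and Cxcl5 binds Cxcr2, averaged 0.458 ± 0.197 FPKM in ASTs and 0.77 ± 0.338 in A-iSCs, and Cxcr2 stayed under 0.1 FPKM in every group mean. Cxcr6, the receptor of Cxcl16, averaged 0.704 ± 0.102 FPKM in ASTs and 0.132 ± 0.0926 in A-iSCs, opposite in order to its ligand, but Cxcr6 did not reach the filter for a test. Cxcl13 had 6 fragments in P56-NPC replicate 3 and none in the other samples of that group, and its receptor Cxcr5 averaged 0.0891 ± 0.061 FPKM in P56-NPCs, from 7, 1 and 7 fragments. Ccl20 averaged 0.252 ± 0.122 FPKM in ASTs and its receptor Ccr6 0.0879 ± 0.0566 FPKM in P56-NPCs.

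Family members outside the chosen symbols included Cx3cr1 and Pf4. Cx3cr1, the receptor on microglia of Cx3cl1, stood at 6.54, 7.89 and 7.09 FPKM in ASTs, 68.8, 57.6 and 57 in A-iSCs, 41, 44.2 and 37 in P56-NPCs and 3.55, 5.67 and 3.82 in P0-NPCs, highest in A-iSCs where Cx3cl1 was 4.26 times below ASTs (2.92 ± 0.13, adjusted p = 5.9e-06). Pf4, a CXC chemokine of platelets and border macrophages that is also on the list of border macrophage markers, averaged 3.89 ± 1.33 FPKM in ASTs, 28.4 ± 6.49 in A-iSCs, 1.14 ± 0.416 in P56-NPCs and 22 ± 1.73 in P0-NPCs. Of 33 genes that signal below chemokine receptors, 31 were tested in A-iSCs over ASTs, where 19 were higher and 6 lower, beside 25.2% and 29.6% of all genes. The higher genes included some that are largely restricted to blood-lineage cells and are named after their values were seen, with means of 2.15 and 19.1 FPKM for Vav1, 1.95 and 19.1 for Rac2, 0.95 and 6.39 for Was, and 0.656 and 6.08 for Dock2. All 12 microglia markers were higher in the same comparison, and their part in the count was not tested. The highest mean on the list in both groups was that of Gnai2, an inhibitory G protein subunit, at 289.9 ± 32.8 and 239.8 ± 27.9 FPKM, which was not called (-0.27 ± 0.16, adjusted p = 0.191). Gnb1, a G protein beta subunit, averaged 141 ± 2.35 and 74.4 ± 12.1 FPKM and was lower (-0.93 ± 0.15, adjusted p = 0.00176). Of the same list, 20 were higher and 10 lower of 32 in P56-NPCs over ASTs, beside 39.1% and 39.8% of all genes, and 9 and 11 of 27 in P0-NPCs over ASTs, beside 38.1% and 40.9%.

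Of 22 inducers of chemokine genes (cytokines, their receptors and the NF-kappaB, STAT and IRF factors), 20 were tested in A-iSCs over ASTs, and 9 were higher and 2 lower, where 25.2% of all genes were higher and 29.6% lower. Irf8, Il1b and Il1a, which myeloid cells express and which are named after their values were seen, were among the higher genes, with means of 1.29, 0.412 and 0.106 FPKM in ASTs against 17.9, 3.67 and 2.06 in A-iSCs. The part of the microglia markers, of which 12 of 12 were higher, was not tested. In P56-NPCs over ASTs 2 of 18 were higher and 15 lower, where the shares of all genes were 39.1% and 39.8%. In P0-NPCs over ASTs 0 of 18 were higher and 16 lower, where the shares were 38.1% and 40.9%. Tnfrsf1a, a receptor of TNF, averaged 64.7 ± 4.72 FPKM in ASTs against 91.1 ± 19.3 in A-iSCs (0.47 ± 0.18, adjusted p = 0.0591), with 15.2 ± 1.12 in P56-NPCs and 8.32 ± 0.163 in P0-NPCs. Irf7, which amplifies interferon responses, averaged 7.02 ± 1.27 FPKM in ASTs, 61.7 ± 19.9 in A-iSCs, 1.12 ± 0.919 in P56-NPCs and 0.922 ± 0.362 in P0-NPCs, and it was higher in A-iSCs than in ASTs (2.92 ± 0.25, adjusted p = 8.06e-05). Nfkbia and Rela, the inhibitor and a subunit of NF-kappaB, did not pass the test in A-iSCs over ASTs (-0.25 ± 0.16 and -0.037 ± 0.12, adjusted p = 0.218 and 0.816). Ifng, the gene of interferon gamma, was at 0 in all samples of both cultured groups.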

How the data were processed

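RNA was extracted with Trizol, libraries were made with the NEBNext Ultra kit and sequenced as paired ends, and reads with adapters or of low quality were removed, by the study's methods. The submitters' processing notes name Bowtie 0.12.2 and the build mm8 with no role, while 54985 of 55240 shared gene IDs had the positions of GRCm38. The authors deposited 1 table of 55862 genes whose values were read as FPKM, because each value times gene length and a library size inferred for its sample gave a whole number of fragments within 0.02. The study's methods name DESeq2 for its comparisons, which was not run here. Here groups were compared a pair at a time by limma 3.58.1 (R 4.3.3, empirical Bayes with a trend) on log2(FPKM + 1), over genes with a mean of at least 1 FPKM in either group, with Benjamini-Hochberg adjustment over all genes tested and calls under 0.05. Fold changes are on the log2(FPKM + 1) scale, which understates changes of low genes, while "times" are ratios of mean FPKM. Fits were tested on simulated data. With 3 samples against 3, an exact permutation test cannot go below 0.1. Floors cover counting error only. Genes with a mean of at least 5 FPKM in a group and known ligand and receptor pairs were named, others by counts, and 1 gene is counted but not reported here. The genes, lists and markers were chosen with earlier results of these data known. Alternatives were another pseudocount (0.1), scaling, filters, all 4 groups in the model, limma-voom on recovered fragments, a replicate block and leaving out each sample. Promoter windows came from RefSeq, and 46 of 52 matched a transcript start. Figures were drawn with Python 3.11.15 and matplotlib 3.10.9.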

Additional observations from a re-analysis of the deposited data

How the results depend on the processing

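Counts of called chemokine genes stayed within 1.5-fold of the main ones under every alternative except those named here. With no filter on low values, which tests more genes, 8 were lower in A-iSCs over ASTs, 15 higher in P56-NPCs over ASTs, 12 higher in P0-NPCs over ASTs, 9 lower in A-iSCs over P56-NPCs, 6 lower in A-iSCs over P0-NPCs and 7 lower in P56-NPCs over P0-NPCs. With scaling by library size alone 3 were lower in A-iSCs over P56-NPCs and 7 in P56-NPCs over P0-NPCs, and the cause was not tested. Signs turned only for values that were not called in the comparisons above. Ackr3 in A-iSCs over ASTs was 0.12 on the log2 scale with library size alone and 0.12 with upper-quartile scaling, and -0.16 to 0.00089 with 1 sample left out. Ccl4 in P56-NPCs over ASTs was -0.045 with library size alone. Ccl12 in P0-NPCs over ASTs was 0.038 and 0.12 with these scalings, and -0.26 to 0.0027 with 1 sample left out. Ackr3 in P56-NPCs over P0-NPCs ranged from -0.11 to 0.010 with 1 sample left out, and it gained a call with library size alone (-0.54, adjusted p = 0.000441) and with upper-quartile scaling (-0.25, adjusted p = 0.0275). Of single-gene values, 922 kept direction and side of the threshold under other settings, 29 lost a call, 8 gained one and 5 reversed, and with 1 sample left out these were 684, 32, 11 and 3.

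Whether the replicate numbers pair the samples was not settled. Deviations of same-numbered samples correlated at -0.38, 0.34 and 0.43 in replicates 1, 2 and 3 of ASTs and A-iSCs. For the other pairs of groups they correlated between -0.14 and 0.10. With 3 samples a group such deviations are tied to each other, so this check cannot exclude a pairing. Samples correlated best with their own number in 3, 1, 2, 0, 0 and 3 of 6 cases, in the order AST with A-iSCs, P56-NPCs and P0-NPCs, A-iSCs with P56-NPCs and P0-NPCs, and P56-NPCs with P0-NPCs. With the replicate block the higher and lower calls were 12 and 6 in A-iSCs, 8 and 11 in P56-NPCs and 5 and 12 in P0-NPCs over ASTs, 10 and 5 in A-iSCs over P56-NPCs, 15 and 3 in A-iSCs over P0-NPCs, and 10 and 4 in P56-NPCs over P0-NPCs.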
